A study of Mus musculus with 20 samples.

Results

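The genes described here are 38 genes of cholesterol and fatty acid synthesis, of the control of that synthesis by sterols, and of sterol transport and efflux, followed in mouse embryonic stem cells with altered Trim71. They were taken by symbol from the deposited table, and 38 of the 38 listed symbols were found among its 13283 genes. TRIM71 is an RNA-binding protein of pluripotent cells. The series compared 20 libraries of messenger RNA in 5 genotype groups, each of strain C57BL/6, labelled male, and kept in medium holding serum, LIF and 2i (a pair of kinase inhibitors that hold the naive state). In the first system, cells with a floxed Trim71 gene (Trim71-cond) were set against cells deleted for it (Trim71-KO), with 4 libraries each, coded 1A, 2B, 3A and 3B. These libraries carry no clone name, so they may come from 1 deletion event or from several, and their p-values then measure a spread that may be technical. In the second system each genotype had 3 clones. The WT clones were C16, C5 and C7, the heterozygous clones (R595H/+) were C15, C21 and C23, and the homozygous clones (R595H/R595H) were C14, C20 and C24. C16, C15 and C14 each had a library titled 20/1 and another titled 5/2, which were averaged, and every other clone had 1 library titled 5/2.

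Cells make cholesterol from acetyl-CoA through mevalonate, squalene and lanosterol, and they make fatty acids from the same acetyl-CoA. When membranes of the endoplasmic reticulum are low in sterol, SCAP carries the SREBP transcription factors to the Golgi, where proteases release their active part, while INSIG proteins hold the complex back when sterol is plentiful. Genes of sterol synthesis are classic SREBP targets, and the efflux pump gene Abca1 is a classic target of the liver X receptors, which sense oxidised sterols.

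The cells carried the marks of naive embryonic stem cells. Each of 8 listed markers of that state was above the low-value filter, with mean log2 levels over the libraries from 7.51 to 11.1. Of 7 markers of feeder fibroblasts 6 had no row in the table, and the other, Thy1, had a mean of 1.90. Of 6 primitive endoderm markers 1 passed the filter, and of 5 neural progenitor markers 2 did. The log2 of the summed level of the neural progenitor markers lay between 7.155 and 7.368 in Trim71-KO and between 6.969 and 7.148 in Trim71-cond. That of the naive markers lay between 12.82 and 12.87 in Trim71-KO and between 12.69 and 12.72 in Trim71-cond. Neither pair of ranges overlapped, and their part in the Trim71-KO differences was not tested. Trim71 lay between 7.43 and 7.53 in Trim71-KO against 8.93 to 9.01 in Trim71-cond. In the clones it lay between 9.48 and 9.53 in WT, 9.55 and 9.63 in R595H/+, and 10.00 and 10.18 in R595H/R595H. The mean of 4 Y-linked genes ran from 3.72 to 6.20 over the libraries. It lay between 3.72 and 4.36 in R595H/R595H, between 3.89 and 6.00 in WT and between 4.02 and 5.61 in R595H/+. The share of the back-transformed sum held by Lars2 ran from 0.334% to 13.2%. The part of both in the results was not tested beyond the alternatives given with the sensitivity of the results. In bulk RNA a smaller share of expressing cells and less RNA per cell cannot be told apart.

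One property of the deposited values bears on every p-value below. After the mean of each gene was removed, 20 libraries should vary along 19 independent directions, and these varied along 14. Each of the 5 absent directions summed to 0 within each genotype, to within 7.8e-08. Values take that form when 5 further terms are fitted beside the genotype and subtracted, but no source used here names such a step. The absent directions held 94.3% of the contrast between code 1A and the other codes and 93.7% of the contrast between the 20/1 and 5/2 libraries. Deviations of the 1A libraries of Trim71-KO and Trim71-cond from their group means correlated at -0.89. Their values are thus tied to each other, and differences within code 1A below are not free observations. Libraries of 1 genotype therefore lie closer together in this table than free replicates would, standard deviations are too small, and the exact permutation p-values treat as exchangeable libraries that are not. Each call below is given with limma on the values as deposited. It is given again from a fit, chosen after seeing the data, that holds the 5 absent directions as terms. That fit pools the 20 libraries of both systems and leaves 10 residual degrees of freedom, where 20 libraries in 5 groups without the terms would leave 15. The limma fits on the values as deposited use fewer values, so 15 is not their number and they differ from it in more than the terms. The fit with the terms counts both libraries of a clone. In simulated tables from which 5 such terms had been subtracted, both fits gave p-values that were too small, the fit without the terms more so. The share of false calls can therefore exceed the nominal 5%, and the threshold of 0.05 serves here as a rule for naming genes.

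Deletion of Trim71 went with slightly lower levels of part of the synthesis genes, and the homozygous R595H clones stood out by the efflux gene Abca1. Of the 38 genes, 1 was called higher in Trim71-KO than in Trim71-cond (Bscl2), where 9.24% of all genes were, and 7 were called lower (Hmgcs1, Fdft1, Ebp, Insig1, Fasn, Acly and Scd2), where 9.37% of all genes were. In R595H/R595H against WT, 2 were called higher (Abca1 and Bscl2), beside 2.19% of all genes, and 1 lower (Stard4), beside 1.23%. No gene of the 38 was called in R595H/+ against WT, where limma called 0% of all genes higher and 0% lower. At an unadjusted p under 0.05 that comparison had 6 of the 38, beside 7.66% of all genes. R595H/R595H stood above R595H/+ in 2 of the 38 (Abca1 and Bscl2), beside 0.574% of all genes, and below it in 0, beside 0.198%. With unadjusted p-values 8 of the 38 passed in that comparison, beside 18.7% of all genes. Scaling moved the balance of calls over all genes: with library totals made equal, 45.9% of the genes called in R595H/R595H against WT were higher, in place of 64.0%, and 57.9% of those against R595H/+, in place of 74.3%. For the difference of effects described below it was 68.6% in place of 51.5%.

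With the absent directions as terms, the Trim71-KO calls came to 1 higher and 3 lower of the 38, where 375 and 317 of all 9588 genes were called. Hmgcs1, Insig1, Acly and Bscl2 were the 4. Fdft1 (adjusted p 0.087), Ebp (0.060), Fasn (0.099) and Scd2 (0.080) were no longer called. R595H/R595H against WT kept its 3 calls and gained Hmgcs1, in a fit that called 2.49% of all genes higher and 1.55% lower. R595H/R595H against R595H/+ kept its 2 and gained Insig1 as lower, where the shares of all genes were 0.897% and 0.49%. In both comparisons that fit called more of all genes than limma did on the values as deposited. It counts C14, C15 and C16 with both their libraries, so its calls in the clones are not a check at the level of clones. Differences were small throughout: between -0.35 and 0.42 on the log2 scale in Trim71-KO and between -0.50 and 0.77 in R595H/R595H against WT.

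**Figure D1:**
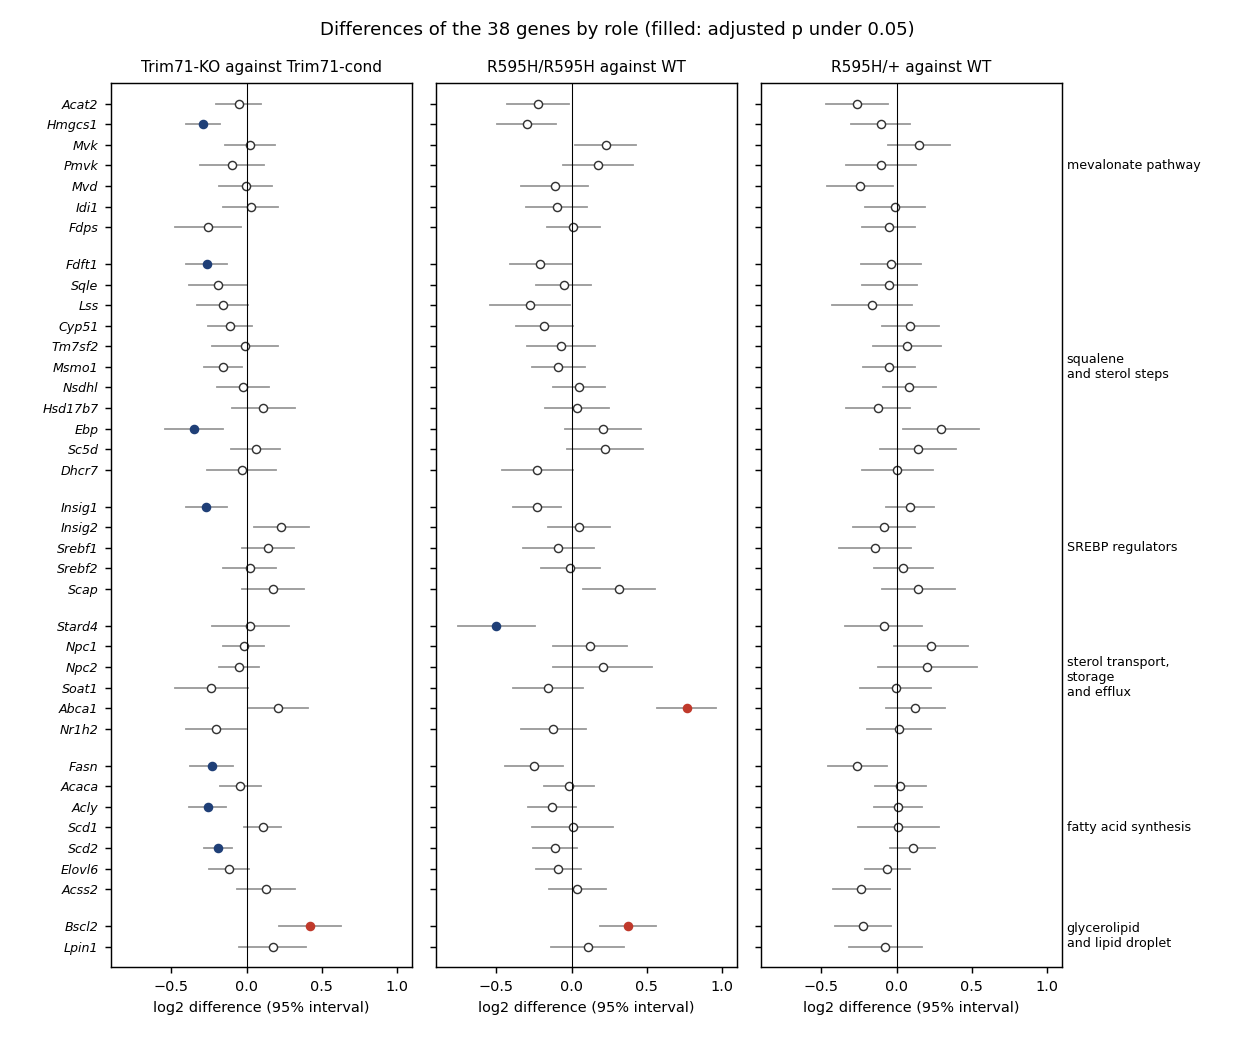
Log2 differences of the 38 genes, in order of their role, in Trim71-KO against Trim71-cond, R595H/R595H against WT and R595H/+ against WT, with 95% intervals from limma on the values as deposited; filled points were called higher (red) or lower (blue). Abca1 at 0.77 and Stard4 at -0.50 lie farthest from 0, both in R595H/R595H, and no point is filled in R595H/+.

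Groups whose libraries or clones did not overlap were about as frequent among these genes as among all genes tested. There was no overlap for 7 of the 38 in Trim71-KO against Trim71-cond (18.4%, beside 20.8% of all genes tested) and for 9 in R595H/R595H against WT (23.7%, beside 29.7%). There was none for 6 in R595H/+ against WT (15.8%, beside 12.5%) and for 10 in R595H/R595H against R595H/+ (26.3%, beside 25.4%). The smallest two-sided exact permutation p is 0.0286 with 4 against 4 libraries and 0.1 with 3 against 3 clones.

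Promoter sequence is shown for 4 of the 5 genes whose calls were kept under each alternative tried in at least 1 comparison. The other, Acly, whose CCAAT match lies after the start, at position 37, is not shown. The window of Abca1, which is shown, held no match to the motifs marked below. RefSeq windows on GRCm38.p6, from 250 bases before to 50 after the start site, were found for 31 of the 38 genes. Not in that set were Fdps, Fdft1, Sqle, Stard4, Npc1, Scd1 and Scd2. The capitals mark an SREBP element (TCACNCCAC) or a CCAAT box, the site of the factor NF-Y (read as ATTGG on the other strand). The stretches were picked after the positions of the matches were known. Liver X receptor elements were not marked, so a stretch without capitals can still hold such an element.
Hmgcs1, chr13:119690161-119690320, plus strand: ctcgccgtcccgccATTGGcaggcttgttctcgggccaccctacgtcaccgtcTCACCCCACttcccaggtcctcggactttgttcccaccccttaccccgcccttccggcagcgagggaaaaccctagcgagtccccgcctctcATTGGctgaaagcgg
Insig1, chr5:28071182-28071321, plus strand: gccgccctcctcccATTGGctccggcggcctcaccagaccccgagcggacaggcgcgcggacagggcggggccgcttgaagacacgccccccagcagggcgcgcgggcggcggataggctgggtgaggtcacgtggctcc
Bscl2, chr19:8837267-8837416, plus strand: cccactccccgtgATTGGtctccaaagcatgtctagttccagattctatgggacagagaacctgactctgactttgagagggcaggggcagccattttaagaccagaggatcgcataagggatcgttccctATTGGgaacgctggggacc
Abca1, chr4:53159906-53160045, minus strand: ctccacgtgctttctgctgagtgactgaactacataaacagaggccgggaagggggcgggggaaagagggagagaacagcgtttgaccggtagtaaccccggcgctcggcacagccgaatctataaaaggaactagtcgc

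Both strands of each window were searched. TCACNCCAC was found in 1 of the 31 windows (3.23%), that of Hmgcs1 at position -137 from the start, and in 1.42% of the windows of genes above the filter. CCAAT was found in 24 of 31 (77.4%), and in 44.5% of the windows of genes above the filter. Among the enzymes of sterol synthesis it was found in 14 of 15 (93.3%). Of the 4 genes shown, Hmgcs1, Insig1 and Bscl2 held it. Other spellings of the SREBP element were looked at after seeing the data. TCACCCCAC was found in 1 of 31 (Hmgcs1) and in 0.722% of the windows of genes above the filter. CACCCCAC was found in 2 of 31 (Acat2 and Hmgcs1; 6.45%) and in 3.70% of those windows. TCACGTGA was found in 0 of 31 and in 2.51%. A longer form was looked at too, and since it contains TCACCCCAC it can add no window.

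Hmgcs1, the cytosolic HMG-CoA synthase that feeds the mevalonate pathway, was lower in Trim71-KO. In the order 1A, 2B, 3A, 3B its log2 level was 9.87, 9.92, 10.10 and 10.00 in Trim71-cond and 9.77, 9.71, 9.62 and 9.62 in Trim71-KO. Each Trim71-KO library lay below each Trim71-cond library, and the difference was narrowest in code 1A. The log2 difference was -0.29 ± 0.05 (SE; adjusted p 0.0011, and 0.028 with the absent directions as terms), a 1.22-fold lower level. In WT the levels were 9.90 (C16, 20/1), 10.09 (C16, 5/2), 10.08 (C5) and 9.87 (C7), and in R595H/R595H they were 9.66 (C14, 20/1), 9.71 (C14, 5/2), 9.53 (C20) and 9.84 (C24). The homozygous clones lay below the WT clones, by -0.30 ± 0.09, which was not called (adjusted p 0.088). It was called with the absent directions as terms (adjusted p 0.034), where both libraries of a clone count as replicates. R595H/+ lay between and overlapped both, at 10.11 (C15, 20/1), 9.95 (C15, 5/2), 9.83 (C21) and 9.77 (C23). Of the exonic bases of Hmgcs1 12.1% overlap Gm48342 on the other strand, for which no value was used here, so reads of that stretch cannot be told apart.

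The other 6 genes of the mevalonate pathway were not called in any comparison. They are Acat2 (acetoacetyl-CoA thiolase), Mvk and Pmvk (the mevalonate kinases), Mvd (the decarboxylase), Idi1 (the isomerase) and Fdps (farnesyl diphosphate synthase). Their log2 differences in Trim71-KO lay between -0.26 (Fdps) and 0.03 (Idi1). Without both libraries of code 1A, an alternative chosen after seeing the data, Fdps was called lower at -0.37. They lay between -0.22 (Acat2) and 0.23 (Mvk) in R595H/R595H against WT. For Fdps, 26.7% of the exonic bases also belong to exons of an annotated gene on the same strand, Gm43738, and for Idi1 9.22% belong to a transcript on the other strand, so their reads cannot be told apart.

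Among the 11 genes from squalene to cholesterol, Fdft1 and Ebp were called lower in Trim71-KO with the values as deposited. Fdft1, squalene synthase, commits farnesyl diphosphate to sterols. It was at 7.67, 7.67, 7.73 and 7.64 in Trim71-cond and at 7.48, 7.44, 7.46 and 7.26 in Trim71-KO, with no overlap. It differed by -0.27 ± 0.07 (adjusted p 0.0076). In the clones the genotypes overlapped, between 7.31 and 7.87 over the 12 libraries. Of its exonic bases 18.3% overlap Ctsb on the other strand, and Ctsb differed by 0.06. Ebp, the sterol isomerase, was at 5.74, 5.85, 6.02 and 5.96 in Trim71-cond and at 5.64, 5.29, 5.67 and 5.56 in Trim71-KO. The groups did not overlap, and 2B was the lowest deletion library, without which Ebp was no longer called. The groups differed by -0.35 ± 0.09 (adjusted p 0.013).

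Ebp went the other way in the clones without being called. Its WT levels were 5.77 (C16, 20/1), 6.04 (C16, 5/2), 5.85 (C5) and 5.67 (C7), and those of R595H/+ were 6.22 (C15, 20/1), 6.17 (C15, 5/2), 6.14 (C21) and 5.97 (C23). Over clone means the R595H/+ clones lay above the WT clones, by 0.29 ± 0.12 (adjusted p 0.60). Over single libraries the 5/2 library of C16 lay above C23. R595H/R595H was at 6.01 (C14, 20/1), 6.09 (C14, 5/2), 5.75 (C20) and 6.25 (C24) and overlapped both.

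The other 9 genes of this stretch were not called in the 5 comparisons with the values as deposited. Sqle (squalene epoxidase) and Lss (lanosterol synthase) close the sterol ring. Cyp51 (lanosterol demethylase), Tm7sf2 (a sterol reductase), Msmo1, Nsdhl and Hsd17b7 (removal of methyl groups), and Sc5d and Dhcr7 (the late desaturase and reductase) follow. In Trim71-KO their log2 differences lay between -0.19 (Sqle) and 0.11 (Hsd17b7), and Msmo1 was the gene whose groups did not overlap, at -0.16 ± 0.06 (adjusted p 0.081). Without code 1A, Lss was called lower at -0.28. Of the exonic bases of Tm7sf2 12.1% also belong to Vps51 on the same strand, which differed by -0.34 in Trim71-KO. They lay between -0.28 (Lss) and 0.22 (Sc5d) in R595H/R595H against WT. Of the 18 enzymes of sterol synthesis, mevalonate pathway included, 14 had a negative difference in Trim71-KO, with a median of -0.08, and 50.6% of all genes did, with a median of -0.0028. In R595H/R595H against WT 11 of 18 were negative, with a median of -0.08, beside 50.7% of all genes. The count was the same, 11 of 18, in R595H/+ against WT, with a median of -0.04, beside 50.2% of all genes. It was again 11 of 18 in R595H/R595H against R595H/+, with a median of -0.04, beside 50.5%.

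**Figure D2:**
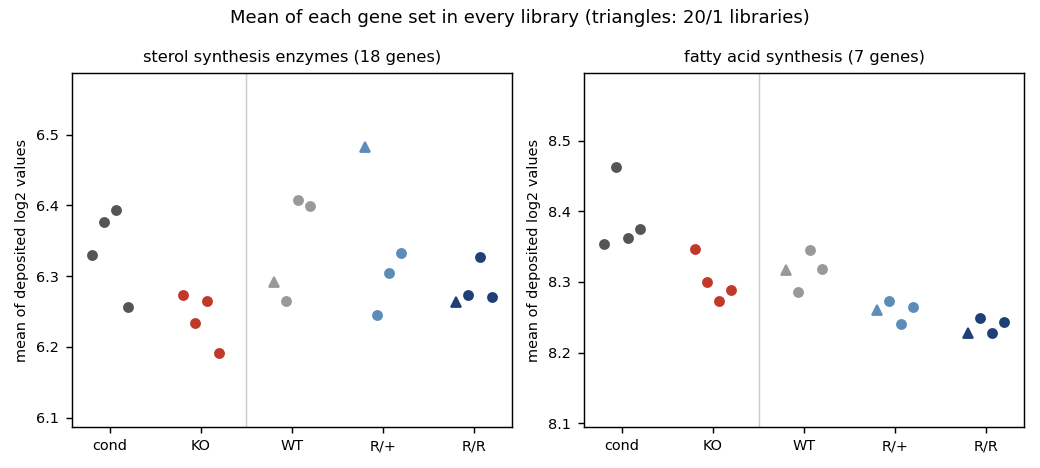
Mean of the deposited log2 values of the 18 sterol synthesis enzymes (left) and of the 7 genes of fatty acid synthesis (right) in every library, for Trim71-cond (cond), Trim71-KO (KO), WT, R595H/+ (R/+) and R595H/R595H (R/R); triangles are 20/1 libraries. The sterol enzyme means of cond (6.26 to 6.39) and KO (6.19 to 6.27) overlap, those of fatty acid synthesis (8.354 to 8.463 and 8.273 to 8.347) narrowly do not, and both axes have the same span.

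Insig1 encodes the protein that retains SCAP and is itself a target of SREBP. Its log2 levels were 8.48, 8.44, 8.59 and 8.42 in Trim71-cond and 8.26, 8.17, 8.36 and 8.07 in Trim71-KO. No deletion library reached a Trim71-cond library. The log2 difference was -0.27 ± 0.06 (adjusted p 0.0069, and 0.034 with the absent directions as terms), and each of 17 alternatives kept the call. In the clones Insig1 was at 8.77 (C16, 20/1), 8.85 (C16, 5/2), 8.85 (C5) and 8.65 (C7) in WT, and at 8.54 (C14, 20/1), 8.54 (C14, 5/2), 8.47 (C20) and 8.61 (C24) in R595H/R595H. R595H/+ was at 8.91 (C15, 20/1), 8.85 (C15, 5/2), 8.79 (C21) and 8.92 (C23). The homozygous clones lay below both other genotypes. Neither difference was called with the values as deposited: it was -0.23 ± 0.07 against WT (adjusted p 0.10) and -0.32 ± 0.07 against R595H/+ (adjusted p 0.059). The latter was called with the absent directions as terms (adjusted p 0.029), where both libraries of a clone count as replicates. That difference was also called with duplicateCorrelation over 12 libraries (adjusted p 0.028), which fits a correlation between libraries of a clone. No other of the 18 alternatives called it.

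Transcripts of the other SREBP regulators were not called. Insig2, which also retains SCAP but is not driven by SREBP in the same way, differed by 0.23 ± 0.09 in Trim71-KO (adjusted p 0.065), the sign opposite to that of Insig1. Srebf1, whose product favours genes of fatty acid synthesis, differed by 0.14, and Srebf2, whose product favours cholesterol genes, by 0.02. Scap differed by 0.18 in Trim71-KO and by 0.32 ± 0.11 in R595H/R595H against WT (adjusted p 0.13). Of its exonic bases 13.2% overlap a transcript on the other strand. Srebf2 in R595H/R595H differed from WT by -0.0092 ± 0.092, with a level between 6.27 and 6.63 over the 20 libraries.

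Abca1, the pump that passes cholesterol to lipid-poor apolipoproteins, had the largest difference of the 38 genes in R595H/R595H. Its log2 levels were 5.97 (C14, 20/1), 6.01 (C14, 5/2), 5.88 (C20) and 6.08 (C24) in R595H/R595H, against 5.13 (C16, 20/1), 5.06 (C16, 5/2), 5.35 (C5) and 5.21 (C7) in WT. R595H/+ was at 5.38 (C15, 20/1), 5.37 (C15, 5/2), 5.34 (C21) and 5.31 (C23). The lowest homozygous library stood clear of every library of the other genotypes, while WT and R595H/+ overlapped. The level was 1.70-fold higher than in WT (log2 difference 0.77 ± 0.09, adjusted p 0.0011, and 1.18e-05 with the absent directions as terms) and 1.56-fold higher than in R595H/+ (0.64 ± 0.09, adjusted p 0.0070, and 0.0011). Each of 18 alternatives kept both calls. The p-values with the absent directions as terms count both libraries of C14, C15 and C16 as replicates. R595H/+ against WT gave 0.12 ± 0.09 (adjusted p 0.81).

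In the first system Abca1 was at 4.92, 5.02, 4.85 and 5.26 in Trim71-cond and at 5.22, 5.10, 5.26 and 5.32 in Trim71-KO. The groups overlapped through Trim71-cond 3B, the highest of its group. The difference was 0.21 ± 0.09 (adjusted p 0.12), and without that library it was 0.29 and called (adjusted p 0.038). No other of the 17 alternatives called Abca1 in this comparison. Subtracting the effect in R595H/R595H from that in Trim71-KO gave -0.55 ± 0.14 (adjusted p 0.033). That was the 1 called lower among the 38, beside 0.689% of all genes, and 0 were called higher, beside 0.73%. Of 25 alternatives 10 lost the call, among them the absent directions as terms (adjusted p 0.073), and the values then ranged from -0.62 to -0.47. Beside genotype, the 2 systems had their own parental cells and handling, and these cannot be told apart.

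Stard4, a carrier of cholesterol between membranes and a target of SREBP, was lower in R595H/R595H. It was at 6.52 (C14, 20/1), 6.42 (C14, 5/2), 6.10 (C20) and 6.64 (C24) there, against 6.95 (C16, 20/1), 7.03 (C16, 5/2), 6.93 (C5) and 6.79 (C7) in WT. Every homozygous library lay below every WT library, and C20 was the lowest. Their log2 difference was -0.50 ± 0.12 (adjusted p 0.038, and 0.033 with the absent directions as terms). Of 18 alternatives 7 lost the call, 6 of them with 1 clone left out (C16, C5, C7, C14, C20 or the R595H/+ clone C15) and the other with the Y-linked mean as a covariate. R595H/+ was at 6.82 (C15, 20/1), 6.77 (C15, 5/2), 6.69 (C21) and 6.97 (C23), all above the homozygous clones, and that difference of -0.41 ± 0.12 was not called (adjusted p 0.10).

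In Trim71-KO Stard4 did not follow. Its levels were 6.94, 6.44, 6.55 and 6.35 in Trim71-cond and 6.28, 6.78, 6.77 and 6.54 in Trim71-KO, so that the deletion library was lower in code 1A and higher in the other 3 codes. The log2 difference was 0.03 ± 0.12. The difference between the effects, 0.53 ± 0.19, was not called (adjusted p 0.15).

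The other 4 genes of this role were not called. Npc1 and Npc2 export cholesterol from lysosomes. Npc1 differed by -0.02 in Trim71-KO and 0.12 in R595H/R595H against WT, and Npc2 by -0.05 and 0.21. Npc2 ran from 7.42 to 8.22 within WT alone. Soat1, which esterifies cholesterol for storage, differed by -0.23 and -0.16, and Nr1h2, which encodes liver X receptor beta, by -0.20 and -0.12.

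Acly, Fasn and Scd2 of the 7 genes of fatty acid synthesis were called lower in Trim71-KO. Acly, which cleaves citrate to acetyl-CoA and so feeds both pathways, was at 10.17, 10.39, 10.39 and 10.42 in Trim71-cond and at 10.23, 10.00, 10.05 and 10.06 in Trim71-KO. In codes 2B, 3A and 3B the deletion library was lower, and in code 1A, whose values are tied by the absent directions, it was higher. The groups therefore overlapped. On the log2 scale the difference was -0.26 ± 0.06 (adjusted p 0.0045, and 0.030 with the absent directions as terms), and each of 17 alternatives kept the call. In R595H/R595H it was at 9.92 (C14, 20/1), 9.98 (C14, 5/2), 10.03 (C20) and 9.93 (C24), against 10.06 (C16, 20/1), 10.09 (C16, 5/2), 10.13 (C5) and 10.11 (C7) in WT. These groups did not overlap, and the difference of -0.13 ± 0.07 was not called (adjusted p 0.32).

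Fasn, the fatty acid synthase, was at 8.49, 8.60, 8.75 and 8.68 in Trim71-cond and at 8.52, 8.21, 8.43 and 8.44 in Trim71-KO. The groups overlapped through code 1A. The difference was -0.23 ± 0.07 (adjusted p 0.022), and 5 of 17 alternatives lost the call, among them leaving out Trim71-cond 3A, Trim71-cond 3B or Trim71-KO 2B. In the clones Fasn was lower in both R595H genotypes than in WT with no overlap, by -0.25 ± 0.09 in R595H/R595H (adjusted p 0.14) and -0.26 ± 0.09 in R595H/+ (adjusted p 0.57), and neither was called. These comparisons share the WT libraries, at 8.33 (C16, 20/1), 8.38 (C16, 5/2), 8.37 (C5) and 8.38 (C7). R595H/R595H was at 8.06 (C14, 20/1), 8.14 (C14, 5/2), 8.16 (C20) and 8.10 (C24), and R595H/+ at 8.19 (C15, 20/1), 8.19 (C15, 5/2), 8.27 (C21) and 7.86 (C23). WT varied least, and C23 was the lowest clone.

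Scd2, the stearoyl-CoA desaturase with the highest level per length of the 38 genes in WT, was at 10.47, 10.57, 10.57 and 10.49 in Trim71-cond and at 10.41, 10.30, 10.32 and 10.31 in Trim71-KO. The groups did not overlap. The difference was the smallest of those called, -0.19 ± 0.05 (adjusted p 0.0065). In the clones Scd2 was lower in R595H/R595H than in R595H/+ with no overlap, by -0.22 ± 0.07, and this was not called (adjusted p 0.12). Its neighbour on chromosome 19, Scd1, differed by 0.11 ± 0.06 (adjusted p 0.22), with the opposite sign. The 2 genes encode similar proteins, and how the authors' counting treated reads that fit both is not given in the sources used here. Acaca (acetyl-CoA carboxylase), Elovl6 (elongation of fatty acids) and Acss2 (acetyl-CoA from acetate) differed by -0.04, -0.12 and 0.13 in Trim71-KO and were not called.

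Bscl2, which encodes seipin, a protein of the endoplasmic reticulum needed for lipid droplets to form, was higher in Trim71-KO and in R595H/R595H. Its levels were 5.08, 5.04, 5.15 and 5.04 in Trim71-cond and 5.58, 5.71, 5.53 and 5.18 in Trim71-KO. The groups did not overlap, although Trim71-KO 3B lay close to the highest Trim71-cond library. The log2 difference was 0.42 ± 0.10 (adjusted p 0.0057, and 0.013 with the absent directions as terms), and each of 17 alternatives kept the call. In R595H/R595H it was at 5.63 (C14, 20/1), 5.59 (C14, 5/2), 5.68 (C20) and 5.59 (C24), against 5.26 (C16, 20/1), 5.28 (C16, 5/2), 5.17 (C5) and 5.32 (C7) in WT and 5.07 (C15, 20/1), 5.04 (C15, 5/2), 4.92 (C21) and 5.11 (C23) in R595H/+. The 3 genotypes fell into separate ranges, with R595H/R595H highest and R595H/+ lowest.

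The Bscl2 difference was 0.37 ± 0.09 against WT (adjusted p 0.034, and 0.048 with the absent directions as terms) and 0.60 ± 0.09 against R595H/+ (adjusted p 0.0076, and 0.0038). Against WT the call was lost in 10 of 18 alternatives, including each of the 6 that leave out a WT or R595H/R595H clone. Against R595H/+ it was lost in 2 of 18, without C14 and with the Y-linked mean as a covariate. R595H/+ against WT gave -0.22 ± 0.09 (adjusted p 0.59). Of the exonic bases of Bscl2 6.75% overlap Gng3 on the other strand, which had a mean of 2.76 and differed by at most 0.06 in these comparisons. Lpin1, a phosphatidate phosphatase of glycerolipid synthesis, differed by 0.17 in Trim71-KO and 0.11 in R595H/R595H against WT and was not called.

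**Figure D3:**
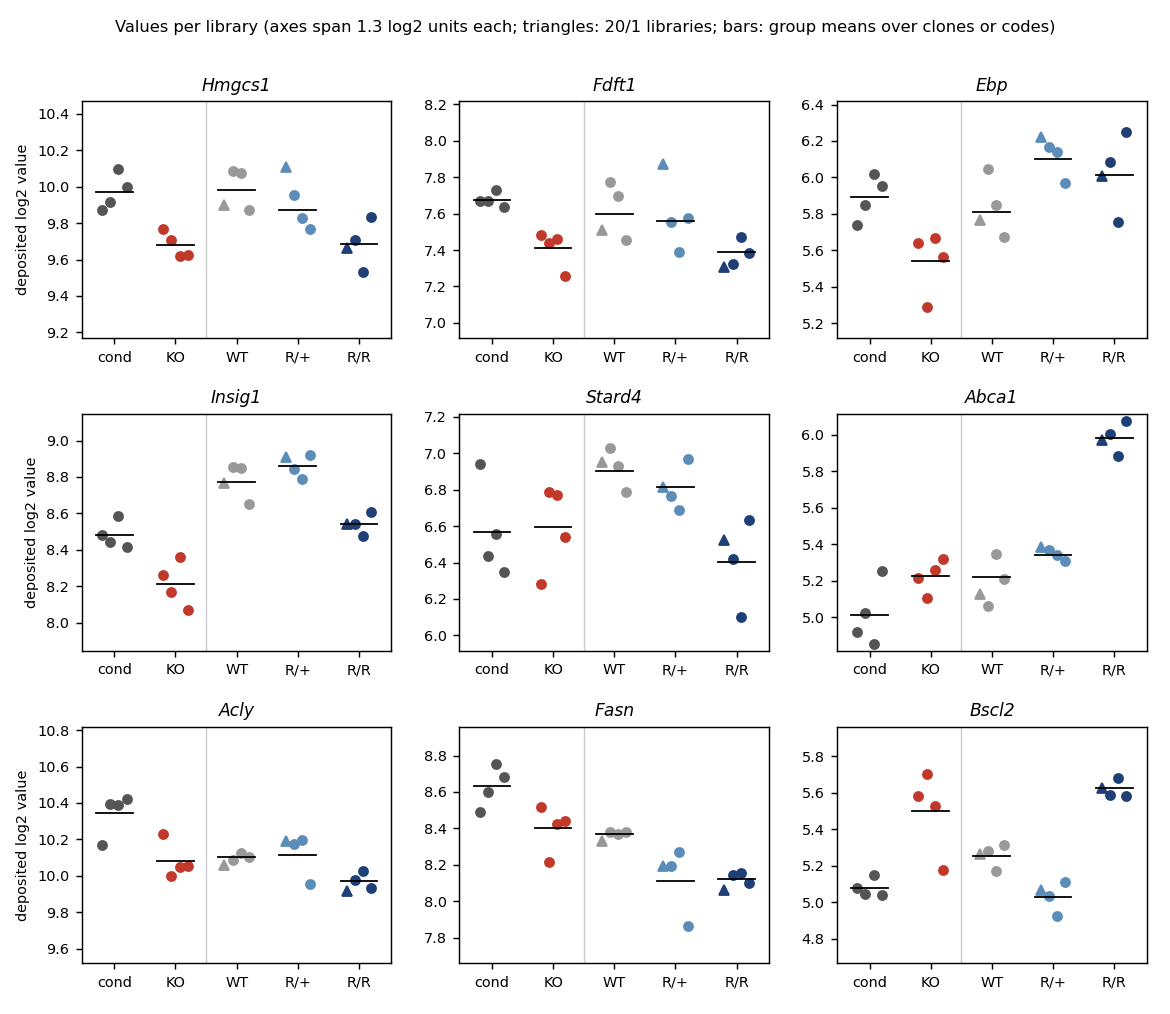
Deposited log2 values of 9 genes in every library, by genotype group (cond, Trim71-cond; KO, Trim71-KO; R/+, R595H/+; R/R, R595H/R595H); triangles are 20/1 libraries and bars are means over clones or codes. The R/R points of Abca1 (5.88 to 6.08) and Bscl2 (5.59 to 5.68) lie apart from those of WT and R/+, and the KO points of Hmgcs1, Fdft1, Ebp and Insig1 lie below those of cond.

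A further 4 genes had clone ranges that did not overlap and a difference of at least 0.25 on the log2 scale, with no call. Acat2 was lower in R595H/+ than in WT by -0.26 ± 0.10 (adjusted p 0.57): it was at 7.07 (C15, 20/1), 6.86 (C15, 5/2), 6.87 (C21) and 6.79 (C23), against 7.07 (C16, 20/1), 7.15 (C16, 5/2), 7.32 (C5) and 6.98 (C7). Over single libraries the 20/1 library of C15 reached the WT range, and over clone means it did not. Pmvk was at 5.67 (C14, 20/1), 5.69 (C14, 5/2), 5.57 (C20) and 5.82 (C24) in R595H/R595H and at 5.55 (C15, 20/1), 5.42 (C15, 5/2), 5.32 (C21) and 5.43 (C23) in R595H/+, a difference of 0.28 ± 0.11 (adjusted p 0.20). WT overlapped both. Cyp51 was at 8.38 (C14, 20/1), 8.38 (C14, 5/2), 8.20 (C20) and 8.47 (C24) against 8.68 (C15, 20/1), 8.64 (C15, 5/2), 8.52 (C21) and 8.69 (C23), a difference of -0.27 ± 0.09 (adjusted p 0.13). Of its exonic bases 3.76% overlap Akap9 on the other strand, which differed by -0.21 in the same comparison. Acss2 was at 4.55 (C14, 20/1), 4.55 (C14, 5/2), 4.71 (C20) and 4.51 (C24) against 4.48 (C15, 20/1), 4.37 (C15, 5/2), 4.28 (C21) and 4.24 (C23), a difference of 0.27 ± 0.09 (adjusted p 0.13).

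Set side by side, the Trim71-KO and R595H/R595H differences, which share no library, were alike in size for part of the genes and apart for others. Hmgcs1 had -0.29 and -0.30, Insig1 -0.27 and -0.23, Fasn -0.23 and -0.25, and Bscl2 0.42 and 0.37. Of these, only Bscl2 was called in R595H/R595H against WT with the values as deposited. Other genes called lower in Trim71-KO had smaller sizes in R595H/R595H: Fdft1 had -0.27 and -0.21, Acly -0.26 and -0.13, and Scd2 -0.19 and -0.11. Hmgcs1, Insig1, Fasn and Bscl2 were named for their close differences. That none of these 4 passed the test of the difference of effects follows largely from that choice. The test gave 0.0070 ± 0.11 for Hmgcs1 (95% interval -0.21 to 0.22) and 0.05 ± 0.14 for Bscl2 (95% interval -0.24 to 0.33), which leaves room for unequal effects. Ebp had -0.35 and 0.21, and the difference of -0.56 ± 0.15 narrowly missed the threshold (adjusted p 0.059). It was called in 3 alternatives, without Trim71-cond 1A, without C20 and without C21. Abca1, at 0.21 and 0.77, was the gene whose difference passed.

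**Figure D4:**
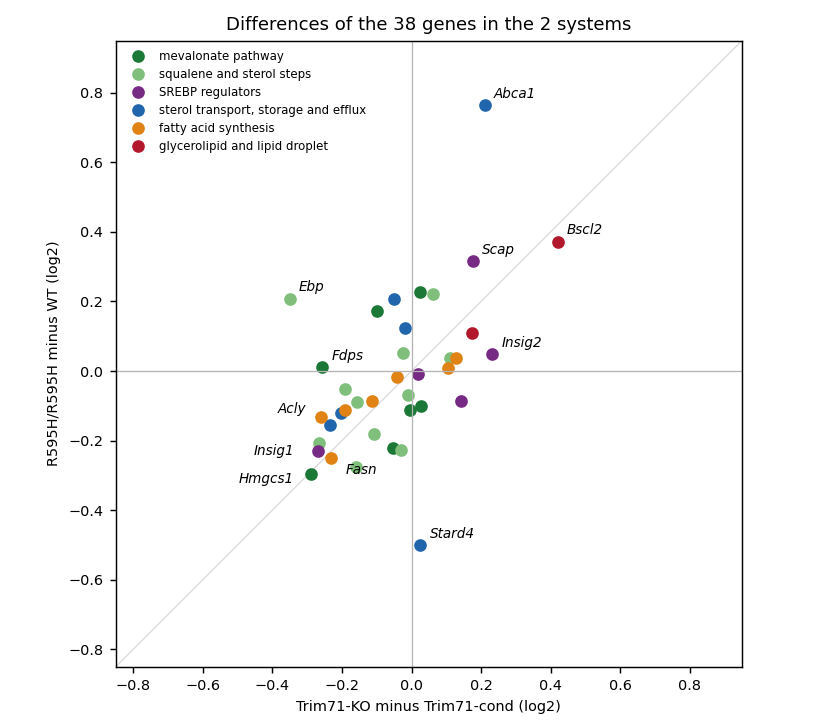
Log2 difference in Trim71-KO against Trim71-cond (horizontal) and in R595H/R595H against WT (vertical) for the 38 genes, coloured by role, with the line of equal differences. Hmgcs1, Insig1, Fasn and Bscl2 lie near the line, while Abca1 (0.21 and 0.77), Stard4 (0.03 and -0.50) and Ebp (-0.35 and 0.21) lie away from it.

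Other genes of these pathways were followed through 5 lists chosen by function. Of their 84 genes above the filter, 11 were called higher and 6 lower in Trim71-KO, beside 9.24% and 9.37% of all genes. Of 10 further genes of sterol and isoprenoid synthesis above the filter, 0 were called higher and 2 lower in Trim71-KO: Lbr, the sterol reductase of the nuclear envelope (-0.24 ± 0.06, adjusted p 0.0057), and Coq2 of ubiquinone synthesis (-0.35 ± 0.11, adjusted p 0.023). Of 17 genes of SREBP control and sterol uptake, 2 were called higher and 0 lower: Mbtps2, the second protease that releases SREBP (0.39 ± 0.07, adjusted p 0.00077), and Gramd1b, a carrier of sterol from the plasma membrane (0.32 ± 0.08, adjusted p 0.0078). Of 10 genes of the liver X receptor pathway, 3 were called higher and 1 lower. Apoe, an apolipoprotein that accepts cholesterol, differed by 0.39 ± 0.07 (adjusted p 0.0010), the corepressor gene Ncor1 by 0.22 ± 0.05 (adjusted p 0.0074), and Rxrb, a partner of the receptor, by -0.28 ± 0.09 (adjusted p 0.027). With the absent directions as terms Mbtps2 and Gramd1b were called, and Lbr, Coq2, Apoe, Ncor1 and Rxrb were not.

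Of 37 further genes of fatty acid and glycerolipid synthesis, 5 were called higher and 3 lower in Trim71-KO, beside 9.24% and 9.37% of all genes. Chka, choline kinase, differed by 0.39 ± 0.07 (adjusted p 0.00043), Fads1, a desaturase of polyunsaturated fatty acids, by -0.38 ± 0.08 (adjusted p 0.0015), and Gpat4, which starts glycerolipid synthesis, by 0.36 ± 0.08 (adjusted p 0.0038). These 3 were called with the absent directions as terms as well. In R595H/R595H against WT the calls from the 5 lists were Rxra, a partner of the liver X receptors (0.37 ± 0.08, adjusted p 0.020), Lbr (-0.31 ± 0.08, adjusted p 0.049) and Mcat of mitochondrial fatty acid synthesis (-0.38 ± 0.09, adjusted p 0.041), and each was also called with the absent directions as terms. Those R595H/R595H against WT calls came to 1 higher and 2 lower of 84, beside 2.19% and 1.23% of all genes. In R595H/+ against WT and in R595H/R595H against R595H/+ limma called 0 of the 84 genes of these lists. At an unadjusted p under 0.05 there were 7 of 84 and 17 of 84, beside 7.66% and 18.7% of all genes. Fads1 was the 1 gene of the 84 whose effects were called different, by -0.50 ± 0.11 (adjusted p 0.016), where 0.689% of all genes were called lower. With the absent directions as terms it was not called (adjusted p 0.051).

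Levels between genes were compared per kilobase of exonic sequence in WT. Scd2 was highest, at 7.92 on the log2 scale per kilobase, followed by Hmgcs1 at 7.78, Acly at 7.70 and Insig1 at 7.14. Acss2 was lowest at 1.20, with Abca1 next at 1.84, Scap at 1.88 and Fdps at 2.00. The genes called lower in Trim71-KO thus included the 4 at the top of this order, with Fasn, Fdft1 and Ebp at 4.92, 5.52 and 4.60. Whether the level of a gene bears on its call was not tested, and the union of annotated exons can be longer than the transcript that was made.

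Between the 20/1 and 5/2 libraries the values of the 38 genes differed from clone to clone. The absent directions held 93.7% of the date contrast, so a shift shared by the clones would be largely missing here. Opposite movements of clones are therefore partly tied to each other and are not free observations. The median of 5/2 minus 20/1 was 0.08 in C16 (WT), -0.0030 in C14 (R595H/R595H) and -0.10 in C15 (R595H/+). In the 5/2 library, 7 of the 38 genes were higher in C15 and 29 in C16, beside 4898 and 4687 of all 9588 genes. The sterol enzymes of C15 were lower in its 5/2 library in 17 of 18, with a median of -0.14 and Lss the farthest at -0.35. Those of C16 were higher in 14 of 18. The C15 median was larger in size than the sterol enzyme medians of -0.08 in Trim71-KO and in R595H/R595H against WT. The libraries of C14 were much closer to each other, with a median size of 0.024 over the 38 genes against 0.089 in C16 and 0.12 in C15. The day field of the labels differs from the title for most of the clone libraries, and titles were followed here.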

How the data were processed

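Messenger RNA was measured in 20 libraries (TruSeq RNA v2 kit, paired-end reads, per the labels' protocols). Per the submitters' processing notes, the authors used CASAVA 1.8, STAR and DESeq2. The sources used here do not state the genome build, the annotation, how reads were counted or which transform was applied. The deposited table holds 1 value per gene and library from -0.65 to 18.0, scaled between libraries by the authors. It was taken to be on a log2 scale, like a regularized log, which would understate changes of low genes. Base 2 is inferred from the tools the authors used. No counts can be recovered, so the depth is unknown and no interval that needs it is given.

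limma 3.58.1 in R 4.3.3 (lmFit, eBayes with trend and robust) was fitted to all genes with a mean of at least 3.32, which is log2 of 10. All 38 genes passed in both systems. Calls used a Benjamini-Hochberg adjusted p under 0.05 over those genes. Errors are standard errors. The first system had a fit of 8 libraries, the clones a fit of 9 clone values with 1 shared spread, and the difference of effects a fit of 17 values. The tests were tried on simulated data. The directions of variation were counted from the singular values of the gene-centred table, of which 5 were at most 5.49e-05 and the next 11.8.

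A gene is given with its value in every library of a comparison where it was called, or where its groups did not overlap and differed by at least 0.25. Of each further list up to 3 called genes per comparison, those with the smallest p, were named, and some results of these lists are not reported here. Genes and lists were chosen with earlier results of these data known. Codes pair the first system's libraries by the day in the labels. Deviations of libraries with the same code correlated at -0.89 (1A), -0.09 (2B), -0.12 (3A) and 0.13 (3B), and the first of these follows from the absent directions. Exon overlaps and lengths came from GENCODE vM21 on GRCm38, and promoters from RefSeq on GRCm38.p6. The search for a liver X receptor element asked for an exact match to a strict spelling and matched almost no window of any gene. It cannot tell whether a promoter holds such an element, and it is not used. Reads of overlapping genes on opposite strands cannot be told apart, since the strand setting of the counting is not given in the sources used here.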

Additional observations from a re-analysis of the deposited data

Results flagged for a closer look

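Of 76 sets of 4 libraries (38 genes in Trim71-cond and Trim71-KO), 8 held 1 library far from the other 3 by Dixon's test, which by chance does so in about 1 of 20. The deposited values are not free replicates, so this rate is approximate. In Trim71-cond, Pmvk was high in 2B (5.879, the others up to 5.426), and 4 genes had a low library: Tm7sf2 in 3B (4.269, the others from 4.714), Npc2 in 3B (7.706, from 7.856), Srebf1 in 1A (5.699, from 5.815) and Acly in 1A (10.17, from 10.39). In Trim71-KO, Msmo1 was low in 3B (7.808, from 8.002), Srebf1 was low in 3A (5.74, from 6.004) and Scd2 was high in 1A (10.41, the others up to 10.32). Acly and Scd2 are called genes, and without both libraries of code 1A each was still called lower. The Abca1 effect of Trim71-KO minus that of R595H/R595H was -0.5549 on the log2 scale, and limma called this difference between the systems. The call was lost in 10 of 25 alternatives, among them equal library totals and the absent directions as terms.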

How the results depend on the processing

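Each comparison was recomputed under 17 to 25 alternatives. No called difference changed sign. Hmgcs1, Insig1, Acly and Bscl2 kept their Trim71-KO calls in all 17, and Abca1 its calls in R595H/R595H against WT and against R595H/+ in all 18. With the absent directions as terms, chosen after seeing the data, the genes called of the 38 came to 3 lower in Trim71-KO, 2 lower in R595H/R595H against WT, 1 lower in R595H/R595H against R595H/+, and 0 for the difference of effects. Over all genes that fit called 375 higher and 317 lower in Trim71-KO in place of 885 and 898. Over the alternatives all-gene counts ran from 375 to 918 higher and 317 to 935 lower in Trim71-KO, 46 to 322 and 20 to 219 in R595H/R595H against WT, 3 to 125 and 0 to 88 in R595H/R595H against R595H/+, and 17 to 112 and 19 to 113 for the difference of effects. In R595H/R595H against WT, 1 in place of 2 was called higher with equal library totals, with 5/2 libraries only and with the Y-linked mean as a covariate, and with that covariate 0 in place of 1 was called lower. In R595H/R595H against R595H/+ that covariate left 1 higher, and duplicateCorrelation over 12 libraries gave 1 lower. Equal totals left 0 for the difference of effects. Leaving out 1 library or clone at a time gave 1 to 2 called higher in Trim71-KO (2 without Trim71-cond 3A, where Insig2 was added, or 3B, where Abca1 was) and 5 to 8 called lower: Ebp and Fasn were lost without Trim71-KO 2B and Fasn without Trim71-cond 3A or 3B, while Fdps was added without Trim71-KO 1A. It gave 1 to 2 higher and 0 to 2 lower in R595H/R595H against WT, 1 to 2 higher in R595H/R595H against R595H/+, and 0 to 1 higher and 0 to 2 lower for the difference of effects. With the replicate block by code or by day, Trim71-KO had 1 higher and 7 lower, as without it, and the paired fit left the difference of effects at 1 lower, so the block changed none of these calls, while over all genes it gave 696 higher and 696 lower in Trim71-KO by code and 31 and 36, in place of 70 and 66, for the difference of effects. Without both libraries of code 1A, 9 of the 38 were called lower, beside 7.89% of all genes. The cause of these changes was not tested. Low genes are limited by unknown depth and shrinkage, and no p-value can account for variation that is absent from the table.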
